A study of Mus musculus with 8 samples.

Results

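Collagen chain genes were followed on 8 arrays, each hybridised with Cy3-labelled RNA of mouse embryonic stem cells. A gene was included if its symbol has the form Col, a number, a, a number, and if its probe was well above background on at least 2 of the 8 arrays. Of 44 such genes with a named probe (64 probes), 38 were included, among 16090 genes tested in all. Of these 38, 29 were well above background on all 8 arrays, 4 on 4 to 7 arrays and 5 on 2 or 3 arrays. Just outside the rule was Col15a1, seen on 1 array, and Col19a1, Col24a1, Col28a1, Col4a3 and Col9a3 were well above background on none.

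All cells carried H-Ras-/-;N-Ras-/-;K-Ras lox/lox;RERT ert/ert, so that 4-hydroxytamoxifen (OHT) removes their last RAS gene. They grew on gelatin in serum with LIF, and the labels give them as wild type or knockout for ERF. ERF is a repressor of the ETS family that ERK signalling holds out of the nucleus. OHT lasted 2 days or longer. The 4 groups, of 2 arrays each, were ERF wild type untreated, ERF wild type with OHT, ERF knockout untreated and ERF knockout with OHT. Each held 2 mixed clones. By their source names the cells formed 4 pools: A1 and B1 (wild type) and A2 and B2 (knockout), each sampled without and with OHT.

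Collagens are trimers of alpha chains wound into a triple helix. Fibrillar collagens build the fibres of connective tissue, collagen IV the sheet of basement membranes, and collagen VI beaded filaments. Basement membrane chains are typical products of primitive endoderm, a cell type that can arise in stem cell cultures.

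Levels are log2 of the processed spot signal minus the 75th percentile of its array, so that 0 is the 75th percentile. They are compared between arrays for 1 gene, never between genes, whose probes differ. Spots well above background made up 54.0% to 63.6% of each array. The 2 arrays of pool B1 were on a slide of their own. Erf read 4.73 to 5.21 on the 4 wild type arrays, 3.25 and 3.73 in pool A2, and 5.42 and 5.13 in pool B2, so pool B2 was not below the wild type. The place of that probe against the deletion is unknown here, and the genotype is therefore called the labelled knockout.

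The fit on the 4 group means passed no gene in any comparison of treatment or genotype, collagens included (limma, Benjamini-Hochberg over all genes, adjusted p under 0.05; 0% of 16090 genes). Unadjusted p was under 0.05 for 924 genes with OHT in the wild type, 5 of them collagens. In the labelled knockout it was so for 596 genes, 3 of them collagens. The calls below come from an alternative, named the paired fit: each pool is compared with itself, limma's variance is trended and robust, and spots in dark patches, areas of an array where most spots read low against the other arrays, are left out. For OHT it has 2 residual degrees of freedom. Its p-values there rest on how far the OHT difference varied between pools of the same genotype, taken over both genotypes together. That variation is then drawn by limma toward the trend over all genes. The spread of levels between pools is taken out. Calls from the paired fit are those of an alternative, not of the fit on group means.

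With OHT, Col9a2, Col5a3 and Col4a1 rose and Col6a5 fell in both genotypes in the paired fit. The labelled knockout calls of Col5a3 and Col4a1 were lost when dark spots were kept. Such shared calls were 7.89% of the collagens higher and 2.63% lower, against 3.70% and 3.10% of all genes. In the wild type 6 of the 38 collagens passed, 4 higher and 2 lower, where 16.3% of all genes passed (7.61% higher and 8.68% lower). In the labelled knockout 8 passed, 7 higher and 1 lower, where 9.97% of all genes passed (5.92% higher and 4.05% lower). The median difference of the 38 with OHT was 0.15 in the wild type, against -0.03 over all genes, and 0.51 in the labelled knockout, against 0.06. After normexp background correction the wild type median turned to -0.13, against -0.08 over all genes, and that of the labelled knockout fell to 0.26, against 0.02. With 1 array left out of the fit on group means they ran from -0.05 (without the treated B1 array) to 0.22, and from 0.19 (without the untreated B2 array) to 0.82. Over the 35 collagens free of dark spots, 16 were higher with OHT in all 4 pools (45.7%, against 23.5% of all genes) and 2 were lower in all 4 (5.71%, against 21.1%).

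**Figure D1:**
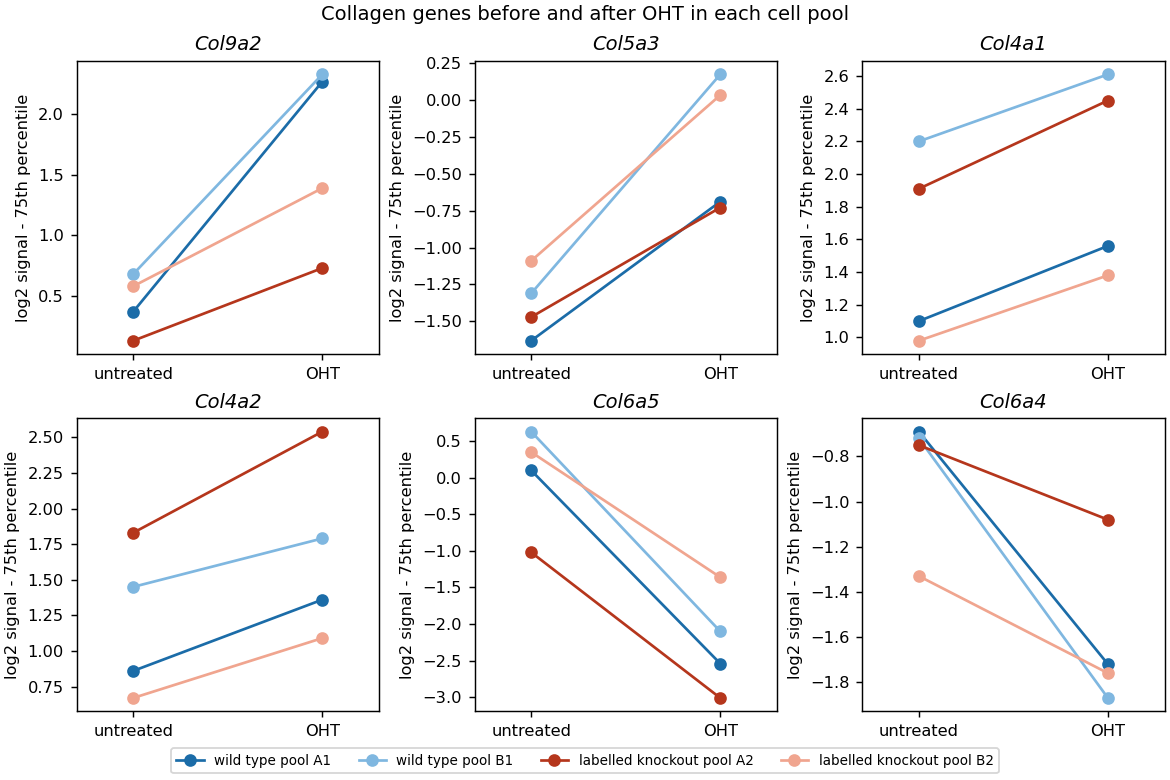
Level (log2 signal minus the 75th percentile) without and with OHT for 6 collagen genes; each line is 1 pool, with no error bars since each point is 1 array. All 4 lines rise for Col9a2, Col5a3, Col4a1 and Col4a2 and all 4 fall for Col6a5 and Col6a4, while the pools start from different levels.

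Col9a2 encodes a chain of collagen IX, which sits on the surface of cartilage fibrils. In the wild type it read 0.37 and 0.68 untreated and 2.27 and 2.33 with OHT (pools A1 and B1). In the labelled knockout it read 0.13 and 0.58 untreated and 0.73 and 1.39 with OHT (pools A2 and B2). Treated and untreated arrays did not overlap in either genotype, and the treated wild type arrays were the highest. The difference was 1.77 ± 0.11 (SE, adjusted p = 1.30e-04) in the wild type and 0.71 ± 0.11 (adjusted p = 0.0105) in the labelled knockout, both in limma's paired fit. Its OHT response was 1.07 smaller in the labelled knockout on the log2 scale, a difference of -1.07 ± 0.15 with adjusted p = 0.104, so it did not pass.

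Col5a3 encodes a chain of collagen V, a minor fibrillar collagen. It read -1.63 and -1.31 in untreated wild type, -0.69 and 0.17 with OHT, -1.47 and -1.09 in the untreated labelled knockout, and -0.73 and 0.03 with OHT. All 4 treated arrays were above all 4 untreated ones. It rose by 1.21 ± 0.17 in the wild type (adjusted p = 0.00333) and by 0.93 ± 0.17 in the labelled knockout (adjusted p = 0.0181; limma, paired fit).

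Col4a1 and Col4a2 encode the chains that form the common basement membrane trimer. Col4a1 read 1.10 and 2.20 in untreated wild type, 1.56 and 2.61 with OHT, 1.91 and 0.98 in the untreated labelled knockout, and 2.45 and 1.38 with OHT. Treated and untreated arrays overlapped, yet each pool rose, by 0.40 to 0.54. The paired difference was 0.43 ± 0.09 in the wild type (adjusted p = 0.0152) and 0.47 ± 0.09 in the labelled knockout (adjusted p = 0.0201; limma). Col4a2 read 0.86 and 1.45, then 1.36 and 1.79 with OHT in the wild type, and 1.83 and 0.67, then 2.54 and 1.09 with OHT in the labelled knockout. It too was higher in each pool, by 0.34 to 0.71, with overlapping groups. It passed in the wild type (0.42 ± 0.10, adjusted p = 0.0332) but not in the labelled knockout, where the treated A2 spot was left out (0.42 ± 0.14, adjusted p = 0.115; limma, paired fit). That last call turns on where a dark patch is drawn: with only the centres of the low windows left out, Col4a2 passed there (adjusted p = 0.0246, limma).

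The 2 genes lie head to head on chromosome 8, and their RefSeq promoter windows (GRCm38.p6, 250 bases before to 50 after each start) share 78 bases. The windows of this pair, of Col9a2 and of Col6a5 are shown since these genes moved together or the furthest. Each is written 5′ to 3′ on the gene's strand, with capitals marking GGAA, the core that ETS factors read, or its reverse complement TTCC.
Col4a1, chr8:11312777-11313076, minus strand: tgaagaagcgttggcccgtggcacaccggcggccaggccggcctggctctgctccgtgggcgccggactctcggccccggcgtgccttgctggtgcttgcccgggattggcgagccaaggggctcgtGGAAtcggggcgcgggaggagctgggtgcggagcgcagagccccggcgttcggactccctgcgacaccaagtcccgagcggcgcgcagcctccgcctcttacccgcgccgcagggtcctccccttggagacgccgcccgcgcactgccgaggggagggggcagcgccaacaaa
Col4a2, chr8:11312555-11312854, plus strand: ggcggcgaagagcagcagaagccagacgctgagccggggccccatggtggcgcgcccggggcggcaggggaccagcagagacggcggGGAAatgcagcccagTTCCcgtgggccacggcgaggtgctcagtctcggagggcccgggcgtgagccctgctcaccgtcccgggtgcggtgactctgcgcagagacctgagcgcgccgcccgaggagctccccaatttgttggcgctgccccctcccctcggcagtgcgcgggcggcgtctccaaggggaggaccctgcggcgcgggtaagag
Col9a2, chr4:121039316-121039615, plus strand: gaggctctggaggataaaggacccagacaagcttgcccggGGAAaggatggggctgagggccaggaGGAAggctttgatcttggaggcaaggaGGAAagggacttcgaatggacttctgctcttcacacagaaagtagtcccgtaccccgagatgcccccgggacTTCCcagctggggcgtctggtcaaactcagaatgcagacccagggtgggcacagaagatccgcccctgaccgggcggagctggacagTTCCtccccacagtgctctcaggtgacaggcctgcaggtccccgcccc
Col6a5, chr9:105960594-105960893, minus strand: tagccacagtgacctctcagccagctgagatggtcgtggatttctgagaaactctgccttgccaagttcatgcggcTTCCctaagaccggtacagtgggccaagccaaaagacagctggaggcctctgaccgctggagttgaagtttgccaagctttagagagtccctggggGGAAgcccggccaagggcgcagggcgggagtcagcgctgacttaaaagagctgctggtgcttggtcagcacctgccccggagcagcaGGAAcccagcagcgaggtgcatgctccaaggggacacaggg
GGAA on either strand occurred 1 time in the Col4a1 window, 2 times in that of Col4a2, 5 times in that of Col9a2 and 3 times in that of Col6a5. Of 32851 RefSeq windows of 300 bases, 96.0% held at least 1 GGAA and the median was 3. The longer CCGGAA, which contains GGAA, was in none of the 34 windows of 31 matched collagens and in 14.9% of all windows. These are matches of letters in this window, and no binding was measured.

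Col6a5 and Col6a4, neighbours on chromosome 9, encode chains of collagen VI. Col6a5 read 0.10 and 0.63 in untreated wild type and -2.54 and -2.10 with OHT. It read -1.02 and 0.35 in the untreated labelled knockout and -3.01 and -1.36 with OHT. All treated arrays were below all untreated ones. It fell by 2.68 on the log2 scale in the wild type (-2.68 ± 0.14, adjusted p = 7.24e-05) and by 1.85 in the labelled knockout (-1.85 ± 0.14, adjusted p = 0.00114; limma, paired fit). Col6a4 read -0.69 and -0.72, then -1.72 and -1.87 with OHT in the wild type, and -0.75 and -1.33, then -1.08 and -1.76 with OHT in the labelled knockout. Its wild type groups did not overlap, and it passed there (-1.09 ± 0.14, adjusted p = 0.00226), while in the labelled knockout the difference was -0.38 ± 0.14 (adjusted p = 0.120; limma, paired fit). The other tested collagen VI chains, Col6a1, Col6a2, Col6a3 and Col6a6, passed in neither genotype, nor did Col26a1, which was listed with them.

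Col12a1, Col4a5, Col5a1 and Col1a2 passed with OHT in the labelled knockout and missed the threshold in the wild type. None of the 4 passed for the difference of the responses (adjusted p = 0.292, 0.613, 0.514 and 0.604; limma, paired fit). The wild type difference was 0.27 ± 0.21 for Col4a5, 0.20 ± 0.11 for Col5a1 and 0.12 ± 0.14 for Col1a2. Col12a1, a fibril-associated collagen, read -2.50 and -2.52, then -2.33 and -2.47 with OHT in the wild type, and -1.46 and -3.22, then -0.34 and -1.95 with OHT in the labelled knockout. The A2 arrays were the high ones at both states, and the labelled knockout groups overlapped. Its difference there was 1.20 ± 0.17 (adjusted p = 0.00829; limma, paired fit), against 0.11 ± 0.17 in the wild type. Col4a5, a chain of a second collagen IV network, read -3.31 and -2.80, then -3.07 and -2.50 with OHT, and -1.91 and -3.37, then -0.77 and -2.64 in the labelled knockout, where it rose by 0.93 ± 0.21 (adjusted p = 0.0331; limma). The A2 arrays were again the highest.

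Col5a1, the main chain of collagen V, read 1.17 and 1.30, then 1.37 and 1.50 with OHT, and 1.86 and 0.88, then 2.74 and 1.34 in the labelled knockout, with a rise of 0.67 ± 0.11 (adjusted p = 0.0146; limma). Col1a2, a chain of the collagen I of skin and bone, read 3.08 and 3.74, then 3.18 and 3.90 with OHT, and 3.68 and 3.19, then 4.57 and 3.44 in the labelled knockout (0.57 ± 0.14, adjusted p = 0.0429; limma). The treated A2 array was the highest of the 8 for both genes. With only the centres of low windows left out, Col1a2 did not pass (adjusted p = 0.0616, limma).

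Markers of other cell types were counted with OHT in the paired fit. There 7.61% of all genes passed as higher and 8.68% as lower in the wild type. In the labelled knockout it was 5.92% and 4.05%. Of 10 fibroblast or feeder markers, Prrx1 and Tagln passed as higher with OHT in the labelled knockout and Tagln in the wild type (10 and 8 of the 10 had a difference above 0). Of 11 primitive endoderm markers Lama1 and Sparc passed as higher in both genotypes. In the wild type 5 of the 11 had a difference above 0 and 6 below, with a median of 0.00. In the labelled knockout it was 8 and 3. Of 4 trophoblast markers 3 passed as higher and 1 as lower in the wild type, and 2 as higher in the labelled knockout. Of 8 stem cell markers 3 were higher and 2 lower in the wild type, and 1 higher and 2 lower in the labelled knockout. Of 5 streak and mesoderm markers 1 passed, as lower in the labelled knockout. The fibroblast mean went from 0.34 to 1.25 in A2 and from -0.40 to -0.03 in B2, and the part of these markers in the collagen changes was not tested.

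The collagen counts depend on single pools. Without pool A2 the labelled knockout kept 4 passing collagens, Col12a1, Col5a3, Col9a2 and Col6a5, where the share of all genes fell to 4.59%. Without pool B2 it had 12, 11 of them higher and Col5a3 not among them, where 8.30% of all genes passed. Without pool B1 the wild type kept 3, Col9a2, Col6a4 and Col6a5 (4.48% of all genes), and without A1 it kept 4, Col5a3 besides (4.90%). In these fits the lone pool of a genotype is assumed to vary like the pools of the other. Col9a2 and Col6a5 passed in both genotypes whichever of the 4 pools was left out. With dark spots kept, 5 passed in the wild type (9.71% of all genes), where Col4a2 was lost. The labelled knockout then had 4 (3.40% of all genes), Col12a1, Col5a1, Col6a5 and Col9a2, so that Col1a2, Col4a1, Col4a5 and Col5a3 were lost.

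**Figure D2:**
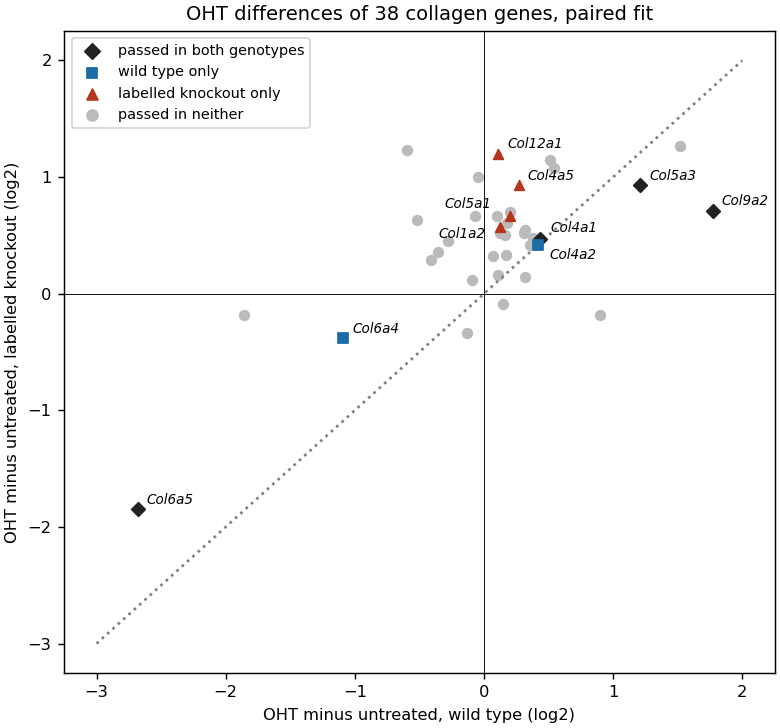
Paired OHT difference (log2) of the 38 collagen genes in the wild type (horizontal axis) and the labelled knockout (vertical axis), with symbols for where a gene passed and a dotted line of equal difference. Col9a2 lies at 1.77 and 0.71 and Col6a5 at -2.68 and -1.85, and 32 of the 38 points lie above 0 in the labelled knockout.

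No collagen differed in its OHT response between the genotypes in either fit (0% of all genes passed; limma). Unadjusted p was under 0.05 for 7 collagens and 1345 genes in the paired fit, and for 2 and 212 in the fit on group means. The median difference of the responses over the 38 was 0.41, against 0.07 over all genes, in the paired fit. It ran from 0.00 (without the untreated B2 array) to 0.67 with 1 array left out of the fit on group means, and was 0.19 after quantile normalization of that fit's values. Without pool B2, 79 genes (0.516%) passed, among them Col1a2 (larger response in the labelled knockout) and Col9a2 (smaller).

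By class, counts are small and are to be set against the 16.3% and 9.97% of all genes that passed in the wild type and the labelled knockout. Fibrillar chains had 1 of 10 passing with OHT in the wild type and 3 of 10 for the labelled knockout, all higher, with medians of 0.18 and 0.60. Network-forming chains had 2 of 9 in each genotype, all higher, with medians of 0.27 and 0.55. Beaded filament and related chains (collagen VI and Col26a1) had 2 of 7 and 1 of 7, all lower. Fibril-associated chains had 1 of 7 and 2 of 7, all higher, and the 4 transmembrane chains had none. The background correction mattered for the dimmer genes. Among the 19 brighter collagens the wild type median was 0.17, and 0.18 after normexp background correction, while among the 19 dimmer ones it was 0.10 and turned to -0.34 with 0 of 19 higher. In the labelled knockout the median of the brighter genes was 0.47, and 0.45 after normexp, while that of the dimmer ones fell from 0.61 to 0.19. Dim genes with a group not well above background have only a bound, taken against the dimmest probe well above background or the gene's own higher signal. By it Col4a4 was at least 1.84-fold higher with OHT in the labelled knockout. Col6a6, well above background on 1 of the 2 untreated arrays, was at least 1.52-fold lower in the wild type. Neither gene passed. The largest rise by the fit on group means in the labelled knockout was that of Col11a1, a minor fibrillar chain, which read -3.84 and -4.72, then -2.21 and -3.81 with OHT (1.27 ± 0.86, adjusted p = 1.00; limma).

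Col1a1, the partner chain of Col1a2, had 1 spot in a dark patch. It read 2.53 and 3.22, then 2.70 and 3.37 with OHT in the wild type, and 3.59 and 2.73, then -2.45 and 3.06 in the labelled knockout. The value of -2.45 stands alone, and its spot lay in a dark patch of the array of pool A2 with OHT, on which 4.68% of spots lay in such patches, against 0.0135% to 2.02% on the others. With that spot the labelled knockout difference was -2.86 ± 1.69 (adjusted p = 1.00). Without it, from pool B2 alone, the difference was 0.33 ± 0.11 (adjusted p = 0.112; limma, paired fit), so the sign turned.

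**Figure D3:**
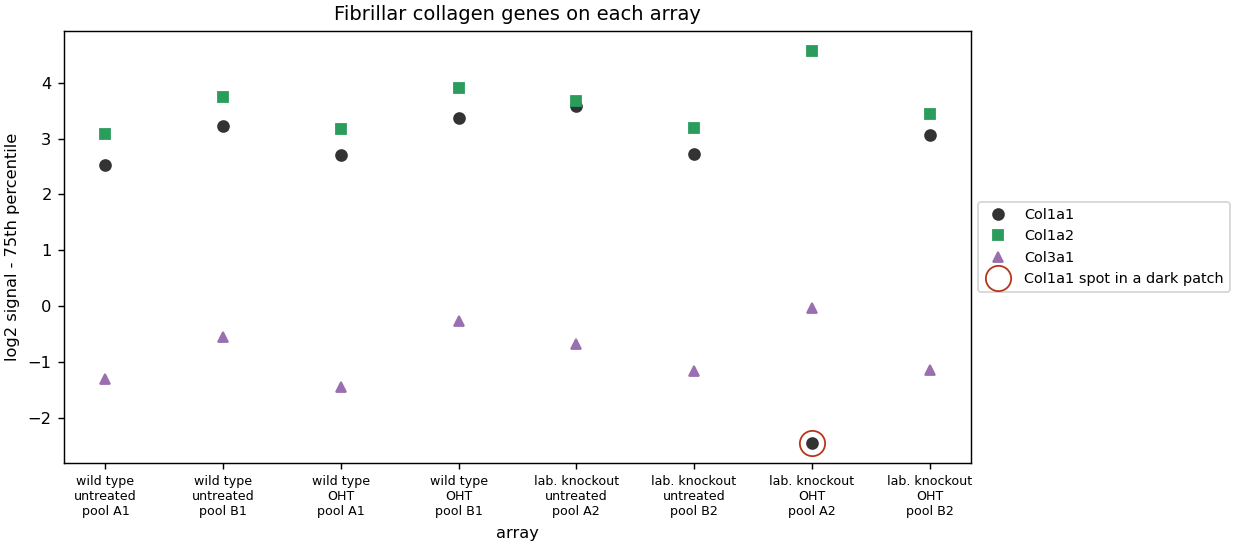
Level (log2 signal minus the 75th percentile) of Col1a1, Col1a2 and Col3a1 on each of the 8 arrays, 1 point an array. The ringed Col1a1 spot at -2.45 lay in a dark patch, while Col1a2 was at 4.57 on the same array.

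Between genotypes no collagen passed with or without OHT (0% of all genes; limma, both fits). Unadjusted p on the group means was under 0.05 for 0 collagens and 212 genes untreated, and for 2 collagens and 330 genes with OHT. The median over the 38 was -0.06 untreated, with 19 higher, and 0.29 with OHT, with 31 higher, against -0.03 and 0.04 over all genes. With 1 array left out the untreated median ran from -0.26 (without the A2 array) to 0.09 (without the B2 array), and that with OHT from 0.06 (without the A2 array) to 0.64 (without the B2 array). The pools disagreed: A2 minus A1 had a median of 0.16 untreated and 0.89 with OHT, and B2 minus B1 of -0.36 and -0.01. A1 and A2 shared a slide, whereas B1 lay on another slide than B2, so pool and slide cannot be told apart in B2 minus B1. Untreated, the largest rise was that of Col27a1, a fibrillar chain, which read -3.80 and -6.44 in the wild type and -2.51 and -4.64 in the labelled knockout (1.54 ± 1.22, adjusted p = 1.00; limma). Its pools lay far apart in each genotype, the reading of -6.44 is below the dimmest probe well above background on that array (-4.30), and after normexp the difference turned to -0.05. Col4a4, the largest fall by that fit, was well above background on 1 of the 2 untreated wild type arrays and on neither untreated labelled knockout array, so it has only a bound, at least 1.43-fold lower, and it did not pass. With OHT the largest rise by that fit was that of Col6a6, not well above background on any array of the groups compared, so that no fold is given. The largest fall was that of Col1a1, whose low spot lay in a dark patch.

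Pools of the same genotype were also compared, each over its 2 arrays. Their p-values rest on the spread within pools, with 1 pool on each side, and do not measure how far pools of clones vary. In A2 minus B2, 10 collagens passed, 9 higher in A2 and 1 lower, where 26.1% of all genes passed (11.5% higher, 14.6% lower; limma with pools as terms). The 9 were Col12a1, Col22a1, Col2a1, Col4a1, Col4a2, Col4a5, Col5a1, Col6a4 and Col7a1, and the 1 was Col6a5. With trended and robust variance and dark spots left out it was 19 higher and 3 lower, where 46.2% of genes passed (18.8% higher and 27.5% lower). In A1 minus B1 only Col22a1 passed, where 0.709% of genes did (0.510% higher and 0.199% lower). With trended and robust variance and dark spots left out it was 7 higher and 9 lower, where 30.2% passed (11.8% and 18.4%). Pool B1 and slide 2 cannot be told apart, whereas A2 and B2 shared a slide.

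Col22a1, a fibril-associated collagen, read -1.58 and -1.20 in A1, -3.27 and -2.93 in B1, -0.98 and -0.60 in A2 and -3.63 and -3.17 in B2 (untreated, then OHT). The A pools were above the B pools in both genotypes, by 1.71 ± 0.08 in the wild type (adjusted p = 0.0366) and 2.61 ± 0.08 in the labelled knockout (adjusted p = 0.0146; limma). Col7a1, which forms the anchoring fibrils of skin, read 1.50 and 1.48 in A1, 0.85 and 1.08 in B1, 3.24 and 3.37 in A2, and 1.09 and 1.28 in B2. Pool A2 stood apart from the other 3, by 2.12 ± 0.10 over B2 (adjusted p = 0.0179; limma). Col2a1, the cartilage collagen, read 1.86 and 2.78 in A2 and 0.31 and 0.34 in B2, against 1.31 and 1.81 in A1 and 0.49 and 0.76 in B1. Col18a1, the endostatin precursor, named for its bright signal, read 5.70 and 5.71 in A1, 5.12 and 4.93 in B1, 5.85 and 6.18 in A2, and 5.49 and 5.41 in B2. Its A pools were above its B pools in both genotypes.

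With trended and robust variance and dark spots left out, 6 collagens were higher in A than B in both genotypes (Col18a1, Col22a1, Col26a1, Col27a1, Col2a1 and Col7a1) and 2 were lower (Col5a3 and Col6a5). These are 15.8% and 5.26% of the 38, against 6.22% and 12.4% of all genes. The wild type difference of Col27a1 turned to -0.21 after normexp. Another 6 went opposite ways, higher in A2 than B2 and lower in A1 than B1: Col1a1, Col1a2, Col3a1, Col4a1, Col4a2 and Col6a1, again 15.8%, against 0.870% of all genes. For Col1a1 and Col4a2 the treated A2 spot was left out, so A2 minus B2 rests there on the untreated array of each pool. Col4a1 was 1.00 ± 0.09 higher in A2 than B2 (adjusted p = 8.85e-05) and -1.07 ± 0.09 in A1 minus B1 (adjusted p = 2.06e-04; limma).

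**Figure D4:**
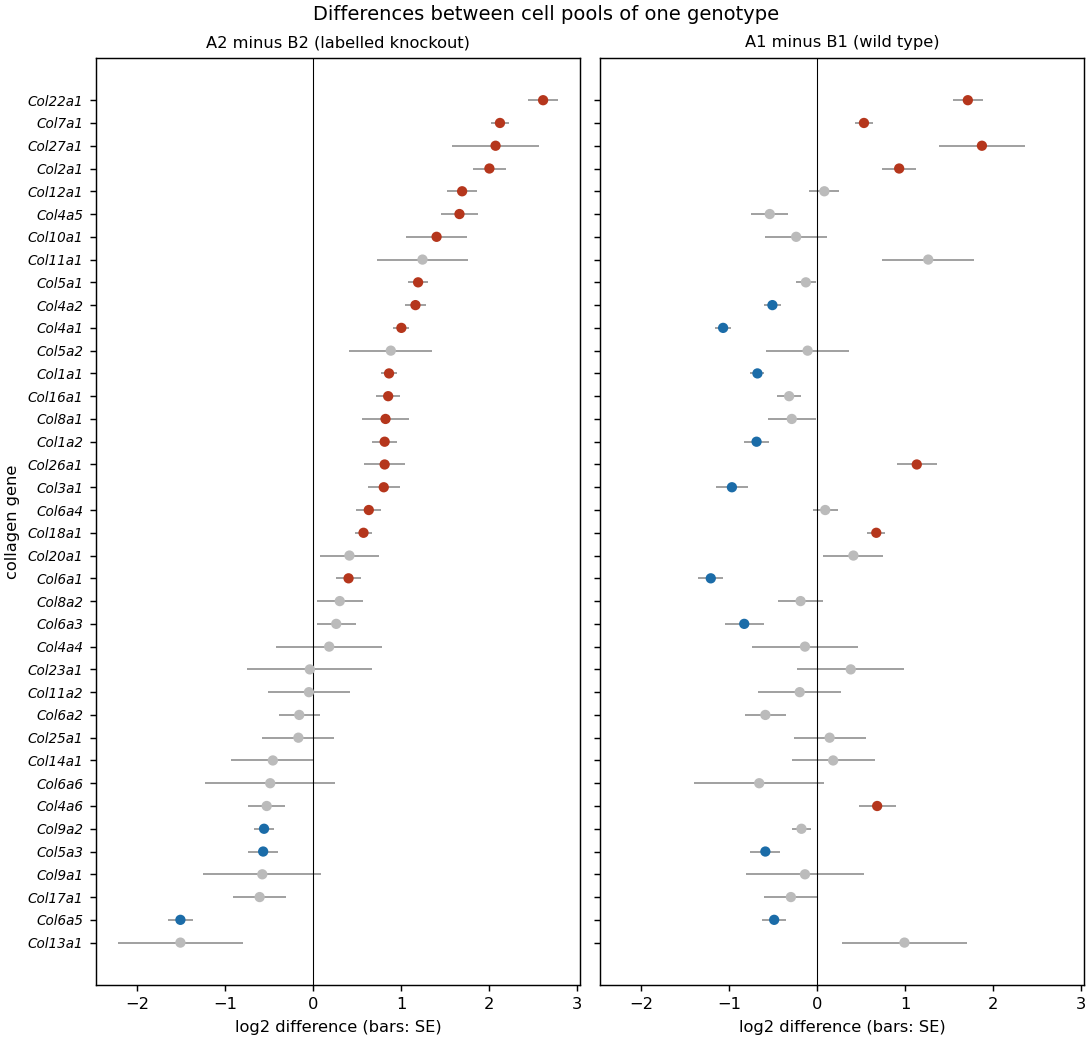
Difference between pools (log2, bars SE) of the 38 collagen genes, with trended and robust variance and dark spots left out; red points passed higher, blue passed lower, grey did not pass. In A2 minus B2 19 are red and 3 blue; in A1 minus B1 7 are red and 9 blue.

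Markers of other cell types moved with these pools, and their part in the collagen differences was not tested. With trended and robust variance and dark spots left out, 18.8% of all genes passed as higher in A2 than B2 and 27.5% as lower. Of the 8 stem cell markers 7 passed as lower. The mean level of the 8 was 4.57 and 4.74 in pool A2 and 5.31 to 5.72 on the other 6 arrays, with Pou5f1 at 3.68 and 3.82 in A2 and 4.76 to 5.47 elsewhere. Zfp42 had no value on the treated A2 array and is not in that array's mean. Of 10 fibroblast or feeder markers with a passing probe, 7 passed as higher in A2 than B2, and their mean was 0.34 and 1.25 in A2, -0.40 and -0.03 in B2, and -0.24 to 0.21 in the wild type. Among them the fibroblast gene Dcn read -3.11 and -2.62 in A2, -4.91 and -4.52 in B2 and -3.73 to -3.21 in the wild type, and passed as higher in A2 than B2. Dcn was well above background on 6 of the 8 arrays. Its B2 readings lie near the dimmest probe well above background on those arrays (-4.95 and -4.58), so the size of that difference is uncertain. Lum had no passing probe. Of 11 primitive endoderm markers 5 were higher and 2 lower in A2. Means of A2 and B2 are not compared for this list, since the spots left out differ between their arrays. Of 4 trophoblast markers 3 were higher in A2, with means of 1.02 and 1.33 against -0.48 and -0.35. Of 5 streak and mesoderm markers 3 were higher, and their means are not compared for the same reason. In A1 minus B1, in the same fit, 11.8% of all genes passed as higher and 18.4% as lower. Primitive endoderm markers had 0 higher and 5 lower there, with means of 0.17 and 0.38 in A1 against 0.84 and 0.81 in B1. Fibroblast or feeder markers had 1 higher and 4 lower, stem cell markers 2 higher and 3 lower, trophoblast markers 3 higher, and streak and mesoderm markers 1 higher. Fewer cells of a type and less RNA per cell cannot be told apart in such bulk RNA.

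Genes that act on collagens were counted with OHT in the same paired fit. There 16.3% of all genes passed in the wild type (7.61% higher) and 9.97% in the labelled knockout (5.92% higher). With dark spots kept these shares fell to 9.71% and 3.40%, and the calls of the genes below under that setting are not given here. Of 18 genes for modifying and folding procollagen, 2 passed in the wild type (P3h3 and Crtap) and 1 in the labelled knockout (P3h3), all higher. P3h3, a prolyl 3-hydroxylase family member, rose by 0.75 ± 0.13 and 0.57 ± 0.13 (adjusted p = 0.00883 and 0.0360; limma). Of 13 for export, processing and cross-linking, the wild type had 3 that passed and the labelled knockout 6, all higher. Pcolce2, an enhancer of procollagen C-proteinase, rose by 1.17 ± 0.15 and 0.80 ± 0.15 (adjusted p = 0.00287 and 0.0218; limma), and Mia3, which helps load procollagen for export, by 0.34 ± 0.09 and 0.35 ± 0.09 (adjusted p = 0.0409 and 0.0483). The cross-linking oxidase Loxl2 passed in the labelled knockout (0.70 ± 0.11, adjusted p = 0.0125; limma). Of 6 collagen receptors, Itga11 passed in the labelled knockout (0.91 ± 0.19, adjusted p = 0.0279; limma) and none in the wild type. Of 7 genes for breakdown and uptake none passed in either genotype. Unadjusted p was under 0.05 for 1 gene of the wild type comparison and 4 of the other (limma, paired fit). Over all 16089 genes it was so for 4973 and 4460.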

How the data were processed

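The deposited values are the scanner's intensity for each spot (processed signal, median signal and local background), with 0 or 1 flags. Per the file headers they were extracted with Agilent Feature Extraction, version 11.5.1.1. The authors' normalisation and tests are not given in these sources. A deposited value table of the series was not used. Control and outlier-flagged spots were left out, spots of a probe averaged, and log2 signal minus each array's 75th percentile taken. Accessions were named through RefSeq (GRCm38.p6, names only): 28026 of 55681 probes matched. The brightest of a gene's probes was kept; 8 collagens had several. In results, a gene passes at adjusted p under 0.05 in limma 3.58.1 (R 4.3.3), with Benjamini-Hochberg adjustment over all genes, two-sided. The main fit has 4 group means.

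The paired fit blocks on the pool (for genotype comparisons, the replicate number). The pairing comes from the source names, and deviations of replicates correlated over genes at 0.721 between wild type groups and 0.642 between labelled knockout groups, against 0.373 to 0.567 across genotypes. In the wild type the replicates lay on different slides, so the 0.721 cannot tell a shared pool from a shared slide. A dark patch is any window of 7 rows by 5 columns whose median deviation, from each spot's median over arrays, is more than 0.5 below the array's, and all its spots are left out. This definition is the third of 3 tried and was settled after values were seen: the earlier ones left out window centres alone (7 by 5, and 11 by 7 at first) and missed spots at patch edges. Under both earlier ones the same number of collagens passed, but Col4a2 passed in place of Col1a2 in the labelled knockout. Members and lists, and the use of the paired fit, were chosen with earlier results of these data known. Values per array are given for collagens that passed either fit with OHT or by genotype, the 5 brightest, and the largest rise and fall of each comparison. Scripts were tested on simulated data. Figures used matplotlib 3.10.9.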

Additional observations from a re-analysis of the deposited data

How the results depend on the processing

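Depth has no count here: 2 arrays a group, and signals near background for the dimmer collagens, limit the precision. The fit on group means passed 0 collagens in the 5 treatment and genotype comparisons, as did that with the pool block alone. With the replicate block, trended and robust variance and dark patches left out, 2621 genes passed with OHT in the wild type, 6 of them collagens. The labelled knockout had 1604, 8 of them collagens. The other settings of this fit, all chosen after seeing the data, gave 1563 and 547 genes with 5 and 4 collagens when dark spots were kept, 2413 and 1413 with 6 and 8 when window centres alone were left out, and 2309 and 1316 with 6 and 8 for the wider window. Col1a1 turned sign under each that left dark spots out, to 0.33 with OHT in the labelled knockout and 0.16 for the difference of responses. Between genotypes with OHT it read 0.02 on group means with dark patches left out, and -0.06 in the paired fit. In A2 minus B2 it read 0.86 with dark patches left out, also under trended and robust variance.

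On group means the wild type OHT comparison passed 3 genes with trended and robust variance, 6 with array weights and 6 among genes well above background on all arrays. Normexp moved the collagen median to -0.13 in the wild type and 0.26 for the labelled knockout, and Col27a1 to -0.05 between untreated genotypes and -0.21 in A1 minus B1. Quantile normalization moved the median to 0.43 in the labelled knockout and 0.19 for the difference. In A2 minus B2, collagens that passed were 16 with dark patches left out or normexp, 18 with trended and robust variance (6349 genes) or all arrays well above background, and 22 with trended and robust variance and dark patches left out (7438 genes), while no filter gave 2007 genes. Its collagen median was 0.71, 0.63 and 0.35 under the filters by group, by all arrays and none, and 0.64 for the mean of probes. In A1 minus B1, genes and collagens that passed were 1372 and 4 with dark patches left out, 3705 and 10 with trended and robust variance, 2062 and 5 with array weights, 2688 and 12 with normexp (median -0.43), 747 and 3 with the filter by group, 2632 and 9 with that by all arrays, 31 and 0 with no filter, and 4861 and 16 with trended and robust variance and dark patches left out. The mean of probes gave 44 genes and quantile normalization 0 collagens. The cause of these shifts was not tested.

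Leaving out 1 array of the fit on group means or 1 pool of the paired fit (the pools chosen after seeing the data) gave 0 to 3436 genes and 0 to 7 collagens with OHT in the wild type (median -0.05 to 0.22), 0 to 1271 and 0 to 12 in the labelled knockout (0.19 to 0.82), and 0 to 312 and 0 to 2 for the difference (0.00 to 0.67). It gave 0 to 20 genes and 0 collagens between untreated genotypes (-0.26 to 0.09), and 0 to 384 and 0 to 1 with OHT (0.06 to 0.64). With OHT, Col4a1 ran from -0.12 (without wild type untreated replicate 1) to 0.98 in the wild type, also -0.09 without wild type OHT replicate 2. In the labelled knockout, Col4a1 ran from -0.07 to 1.01 and Col5a1 from -0.03 to 1.37, lowest without OHT replicate 1, and Col1a1 from -5.61 (without OHT replicate 2) to 0.33 (without pool A1, B1 or A2; it could not be fitted without B2). Col1a1 ran from -5.78 to 0.17 for the difference (0.15 to 0.17 without a pool) and from -5.49 to 0.02 between genotypes with OHT.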
